A study of Mus musculus with 18 samples.

Results

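The genes described here are the MHC class II chains H2-Aa, H2-Ab1 and H2-Eb1, the peptide-loading chains H2-DMa and H2-DMb1, the invariant chain Cd74 and the transactivator Ciita, in cultured mouse bone marrow-derived macrophages. They were chosen by symbol, all 7 were found among the 54532 genes of the deposited count table, and all 7 passed the filter on low counts that left 14684 genes for testing. Every mouse carried loxP-flanked Smad1 (label Smad1 fl/fl, called floxed-labelled here), and the mice of the other label carried LyzM-Cre as well (MyS1KO, called knockout-labelled here), in which Cre is driven from Lyz2, the lysozyme gene of myeloid cells. The mice were 2 to 3 months old. Marrow was cultured for 24 h in 15% serum, 10% WEHI-3 medium and 12 ng/ml CSF-1, then its non-adherent cells for 48 h in 120 ng/ml CSF-1, and then for about 16 h without serum. Cells of each label were left untreated or received TGF-β1 at 10 ng/ml or BMP4 at 50 ng/ml for 4 h, which gave 6 groups of 3 libraries of polyadenylated RNA, numbered 1 to 3. Nothing in the labels ties the 3 libraries of a group to different animals or dishes, so p-values measure only the spread between these libraries, which may be technical.

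MHC class II molecules are pairs of an α and a β chain that show peptides from taken-up protein to CD4 T cells. The invariant chain Cd74 assembles with new pairs and carries them to the endosomes, cathepsins cut it down to a peptide that fills the groove, and H2-DM exchanges that peptide for others. Ciita does not bind DNA itself. It is recruited to a set of proteins (RFX, CREB and NF-Y) held on the X and Y boxes of class II promoters, and its transcription from several promoters, one of them induced by interferon-γ, is the usual control point of the whole set. Resting macrophages are known to carry little Ciita and class II until interferon-γ is given.

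RefSeq start-site sequences (build GRCm38.p6) were at hand for 4 of the 7 genes, and 3 of them are shown for the X and Y boxes on which Ciita acts. H2-DMb2, a near copy of H2-DMb1 that is treated further on, is shown beside them. Each line holds the 130 bases before the table's start site, from -130 to -1 and 5′ to 3′ in the direction of the gene. Capitals mark GNAACT, a core of the X box, and CCAAT, the core of the Y box, on either strand. The stretches lie at chr17:34287824-34287953, minus strand, at chr17:34305737-34305866, plus strand, at chr17:34153061-34153190, plus strand, and at chr17:34145119-34145248, plus strand.
H2-Aa: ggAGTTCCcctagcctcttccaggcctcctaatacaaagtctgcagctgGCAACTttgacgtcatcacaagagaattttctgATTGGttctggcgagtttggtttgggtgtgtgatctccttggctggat
H2-Eb1: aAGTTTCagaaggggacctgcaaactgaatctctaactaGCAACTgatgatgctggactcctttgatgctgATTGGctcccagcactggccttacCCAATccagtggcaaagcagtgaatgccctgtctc
H2-DMb1: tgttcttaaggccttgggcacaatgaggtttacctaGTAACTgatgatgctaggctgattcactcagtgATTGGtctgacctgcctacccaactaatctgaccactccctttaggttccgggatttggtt
H2-DMb2: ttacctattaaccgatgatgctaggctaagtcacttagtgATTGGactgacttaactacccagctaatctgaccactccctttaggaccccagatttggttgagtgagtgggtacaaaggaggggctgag
In H2-Aa, H2-Eb1 and H2-DMb1, GNAACT was followed by ATTGG, which is CCAAT on the other strand, at nearly the same distance. GNAACT began at -81, -91 and -94 in these 3 genes and ATTGG at -48, -59 and -61, which put the starts of the motifs 33, 32 and 33 bases apart. H2-DMb2 held ATTGG and no GNAACT in its stretch. Over all 32851 start-site sequences of 300 bases in the table, 42.8% held GNAACT on either strand and 37.4% held CCAAT on either strand. The pair in this order, with starts 20 to 40 bases apart on either strand, was in 0.935%. Of the 9 sequences for 8 class II genes in the table, searched in the direction of the gene only, 4 held the pair, the fourth being H2-Eb2. The H2-DMa sequences among the others have start sites at 34122832 and 34125518, before the start of H2-DMa at 34135182 in the deposited annotation. Their lack of the pair therefore does not describe the promoter at that annotated start. The motifs and the distance were chosen after the sequences had been seen, and a match is a description of letters only.

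The libraries held 15153296 to 24639163 counts, so 3 counts were worth 0.122 to 0.198 CPM (CPM is the count relative to the library total, scaled by edgeR's TMM factors except in this floor, which covers counting error only). Defining macrophage genes were high throughout, with Csf1r at 4078 to 4981 CPM and the 8 macrophage markers summing to 10176 to 11784 CPM. Of the markers of other cells, Pax5 of B cells did not pass 0.128 CPM, Cd3e of T cells 0.0838 CPM, and Flt3, Zbtb46 and Ccr7 of dendritic cells 1.21, 0.943 and 0.851 CPM. Others of the same lists reached higher levels, with Clec10a at 8.33 to 76.1 CPM, Itgax at 1.76 to 7.71, Batf3 at 0.586 to 4.81, Xcr1 at 0.244 to 1.54 and Clec9a at 0.251 to 1.29 of the dendritic cell list, Cd79b at 7.36 to 18.6 CPM of the B cell list and Cd4 at 3.89 to 14.5 CPM of the T cell list. The 4 monocyte markers summed to 340 to 755 CPM, with Ccr2 at 329 to 731 CPM. The 6 neutrophil markers summed to 51.6 to 133 CPM, with S100a9 at 24.7 to 62.5 CPM. Smad1 itself was at 30.0, 30.8 and 31.1 CPM in the untreated floxed-labelled libraries and 26.8, 26.0 and 26.0 CPM in the knockout-labelled ones, a log2 difference of -0.22 (SE 0.08, edgeR adjusted p = 0.130). A count over the whole gene does not check the loss of a floxed exon. Lyz2, which Cre interrupts on the allele that carries it, went against the labels. It was at 13449 to 17786 CPM in the 9 knockout-labelled libraries and lower in all floxed-labelled ones, at 8118 to 9872 CPM in those numbered 2 and 3 and at 37.6 to 74.3 CPM in those numbered 1. For some genes of the MHC, among them H2-Aa, H2-Ab1 and H2-DMb2, the knockout-labelled libraries numbered 1 and 2 stood apart from number 3 in every treatment, as described with the region. For each comparison, the number of the 7 genes called is also given without the floxed-labelled libraries numbered 1.

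All 7 genes were detected in all 18 libraries, and Ciita was far below the genes it serves. Per length, untreated floxed-labelled cells held Cd74 at 92.7 ± 14.8 FPKM (the authors' scale per gene length and library total; SD, n = 3). H2-Eb1 followed at 29.1 ± 5.49 FPKM, H2-DMb1 at 25.8 ± 2.28, H2-DMa at 21.8 ± 2.90, H2-Ab1 at 20.9 ± 2.89 and H2-Aa at 19.9 ± 1.93. Ciita stood at 1.09 ± 0.0716 FPKM. The ranges of Cd74 and of Ciita lay clear of their neighbours in this order, and those of the 5 genes between them overlapped from each to the next. In untreated knockout-labelled cells the order was the same, from Cd74 at 81.2 ± 4.83 through H2-Eb1 at 21.9 ± 1.39, H2-DMb1 at 20.6 ± 2.59, H2-DMa at 18.7 ± 2.46, H2-Ab1 at 15.8 ± 4.11 and H2-Aa at 12.0 ± 3.24 to Ciita at 1.41 ± 0.152 FPKM. Again only Cd74 and Ciita did not overlap with a neighbour. H2-Ea-ps, the Eα gene that is a pseudogene in this annotation, had 1 count in all 18 libraries together, and H2-Eb2 did not pass 0.503 CPM.

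**Figure D1:**
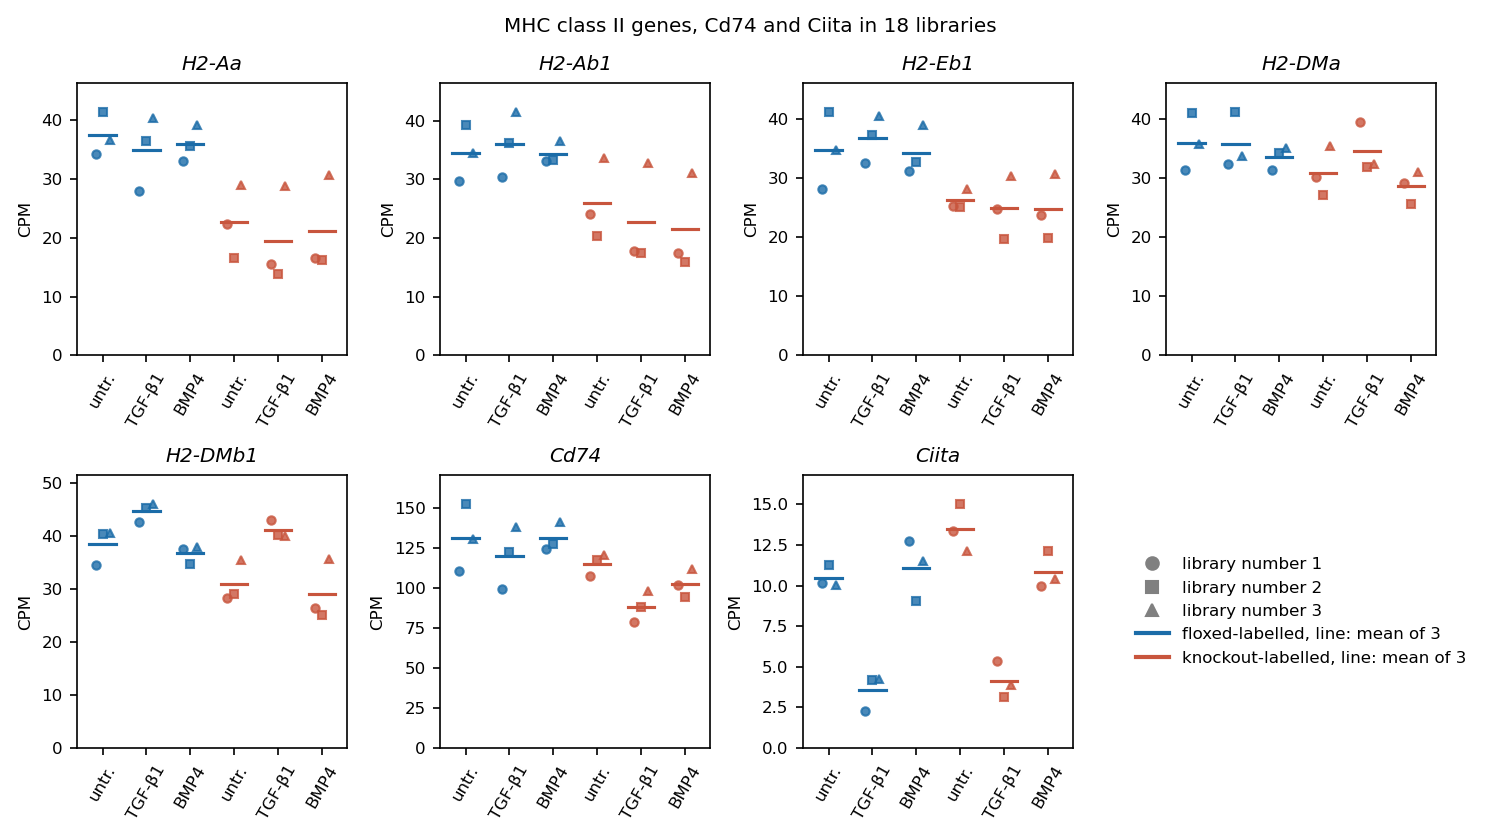
CPM (linear axes from 0) of the 7 genes in the 18 libraries, by treatment and label, with symbols for the library number and a line at the mean of 3. Ciita is at 2.28 to 5.35 CPM in the 6 TGF-β1 libraries and at 9.04 CPM or more in the 12 others, while in the knockout-labelled groups the triangles of number 3 lie above numbers 1 and 2 for H2-Aa, H2-Ab1 and H2-Eb1.

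Ciita fell with TGF-β1 under both labels, by 1.53 and 1.72 on the log2 scale, and no such fall was seen in the class II chains. In floxed-labelled cells Ciita was at 10.1, 11.3 and 10.1 CPM untreated and at 2.28, 4.19 and 4.23 CPM with TGF-β1. In knockout-labelled cells it was at 13.4, 15.0 and 12.1 CPM untreated and at 5.35, 3.16 and 3.89 CPM with TGF-β1. All TGF-β1 libraries lay below all untreated libraries of either label. The means went from 10.5 ± 0.682 to 3.57 ± 1.11 CPM (SD, n = 3 each), a log2 change of -1.53 (SE 0.20, edgeR adjusted p = 3.77e-06), and from 13.5 ± 1.44 to 4.13 ± 1.11 CPM, a log2 change of -1.72 (SE 0.20, edgeR adjusted p = 1.04e-06). The counts behind these levels were 41 to 101 with TGF-β1 and 189 to 246 untreated. Ciita fell in each of the 6 fits per label that left out 1 of the libraries compared. The change with TGF-β1 differed between the labels by -0.19 log2 (95% interval -0.78 to 0.40), which was not called by edgeR. Dexi lies on the opposite strand and overlaps 25888 bases of the span of Ciita (chr16:10480059-10528418 in the deposited table). It did not pass 12.6 CPM and also fell with TGF-β1, by 0.36 and 0.46 on the log2 scale (edgeR adjusted p = 0.0185 and 0.00434). Whether counting used strand is not given in the sources used here, so reads from the shared stretch cannot be told apart.

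The chains that bind peptide were not called with TGF-β1, and their groups overlapped. H2-Aa, the α chain of the I-A pair, was at 34.3, 41.5 and 36.7 CPM untreated and 28.0, 36.5 and 40.4 CPM with TGF-β1 in floxed-labelled cells. In knockout-labelled cells it was at 22.4, 16.7 and 29.0 CPM untreated and 15.5, 13.9 and 28.9 CPM with TGF-β1. The groups overlapped under both labels, with log2 changes of -0.10 (95% interval -0.60 to 0.41) and -0.21 (-0.77 to 0.34). H2-Ab1, the β chain of I-A, changed by 0.07 (-0.42 to 0.56) and -0.19 (-0.71 to 0.33) log2, and H2-Eb1, the β chain of I-E, by 0.09 (-0.24 to 0.42) and -0.07 (-0.43 to 0.28). H2-DMa, the α chain of the peptide exchanger, changed by -0.00 (-0.25 to 0.24) and 0.16 (-0.09 to 0.41). None of these 4 genes was called under either label, with edgeR adjusted p from 0.342 to 0.984. Over the 6 genes other than Ciita, the lowest bound of any of the 95% intervals was -0.60 in floxed-labelled and -0.77 in knockout-labelled cells, so a fall of the size measured for Ciita lay outside all of them. Leaving out single libraries moved H2-Aa in knockout-labelled cells between -0.62 and 0.00 log2 and H2-Ab1 between -0.56 and 0.04, with no call. In these cells each library number was lower with TGF-β1 for both genes, number 3 the least. With library number as a block within the label, H2-Aa changed by -0.24 log2 (SE 0.10, edgeR adjusted p = 0.0527). H2-Ab1 changed by -0.21 log2 in that fit (SE 0.09, edgeR adjusted p = 0.0607). Both stayed short of a call, so a small fall in knockout-labelled cells is not excluded. In floxed-labelled cells the blocked changes were -0.11 log2 for H2-Aa (SE 0.08, edgeR adjusted p = 0.338) and 0.06 log2 for H2-Ab1 (SE 0.08, edgeR adjusted p = 0.568). The intervals and overlaps above leave the library number out of account.

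H2-DMb1 rose and Cd74 fell with TGF-β1 in knockout-labelled cells, both by less than Ciita. H2-DMb1, the β chain of the peptide exchanger, went from 28.2, 29.0 and 35.4 to 43.0, 40.1 and 39.98 CPM, with no overlap (log2 0.41, SE 0.11, edgeR adjusted p = 0.00649). In floxed-labelled cells it went from 34.5, 40.3 and 40.5 to 42.5, 45.3 and 45.9 CPM, also without overlap (log2 0.22, SE 0.11, edgeR adjusted p = 0.129), and with library number as a block within the label it was called (log2 0.22, edgeR adjusted p = 0.0267). Cd74 went from 107, 118 and 121 to 79.1, 88.5 and 98.0 CPM in knockout-labelled cells, again without overlap (log2 -0.38, SE 0.12, edgeR adjusted p = 0.0160). In floxed-labelled cells its libraries overlapped, at 111, 153 and 131 CPM untreated and 99.5, 123 and 138 CPM with TGF-β1 (log2 -0.12, edgeR adjusted p = 0.457). The call for Cd74 was lost without the untreated knockout-labelled library numbered 2 (edgeR adjusted p = 0.0516) or 3 (0.0590), or the TGF-β1 library numbered 1 (0.0947). It was also lost in fits without all knockout-labelled libraries numbered 1 (0.0942) or 2 (0.0925), and the call for H2-DMb1 was lost in the first of these (0.0919). The change with TGF-β1 was not shown to differ between the labels for either gene (log2 difference 0.19, 95% interval -0.13 to 0.51, for H2-DMb1 and -0.26, -0.60 to 0.09, for Cd74).

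With TGF-β1, 1 of the 7 genes was called in floxed-labelled cells, where 33% of all genes tested were called in either direction and 16% were called lower. In knockout-labelled cells 3 of the 7 were called (1 higher and 2 lower), against 34.6% of all genes (17.6% higher and 17.1% lower). With the block, the counts were 2 of 7 (39.5% of all genes) and 3 of 7 (40.3%). The median log2 change of the 7 genes was -0.00 in floxed-labelled and -0.19 in knockout-labelled cells, and that of all genes 0.00 in both. Some markers of other cell types changed with TGF-β1 too. The 9 dendritic cell markers summed to 55.5 to 89.3 CPM in untreated and 20.1 to 23.7 CPM in TGF-β1 floxed-labelled libraries, and to 47.0 to 65.6 and 15.6 to 18.04 CPM in knockout-labelled ones. By gene, 2 of the 8 tested members rose and 2 fell in floxed-labelled cells, and 1 rose and 2 fell in knockout-labelled cells. Itgax rose by 0.85 and 0.89 log2 (edgeR adjusted p = 0.000830 and 0.00183) and Batf3 fell by 2.15 and 2.17 (8.48e-07 and 3.13e-06), while Xcr1 rose in floxed-labelled cells (log2 1.43, edgeR adjusted p = 0.0106; 0.0763 without the floxed-labelled libraries numbered 1) and was at 0.87 log2 in knockout-labelled cells (edgeR adjusted p = 0.128). In untreated cells most of the sum was Clec10a, a lectin that macrophages also make, which went from 46.9, 76.1 and 50.7 to 8.74, 12.1 and 10.8 CPM in floxed-labelled cells. The 6 B cell markers summed to 14.0 to 18.9 and 8.63 to 14.2 CPM in floxed-labelled libraries, with overlap, and to 13.4 to 15.0 and 8.95 to 10.9 CPM in knockout-labelled libraries, nearly all of it Cd79b. Of the 4 tested, 0 were called in floxed-labelled cells and 1 was called lower in knockout-labelled cells. With the block Cd79b was called lower in floxed-labelled cells (log2 -0.50, edgeR adjusted p = 0.000277). Cd4, the tested member of the T and NK cell list, went from 9.07, 10.8 and 8.42 to 5.21, 7.30 and 3.89 CPM in knockout-labelled cells (log2 -0.79, edgeR adjusted p = 0.00606) and changed by -0.45 log2 in floxed-labelled cells (edgeR adjusted p = 0.0825). The part of such cells in the fall of Ciita was not tested. In bulk RNA, fewer cells of a type and less RNA per cell cannot be told apart.

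**Figure D2:**
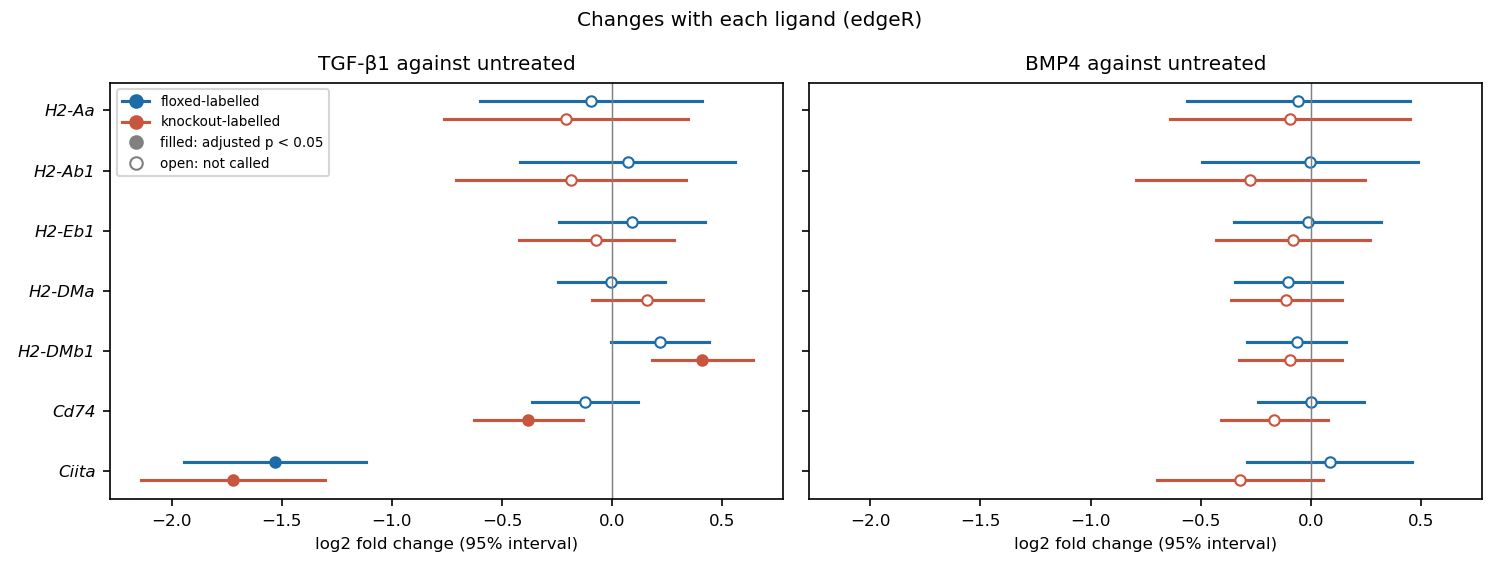
Log2 fold change of each gene with TGF-β1 (left) and BMP4 (right) against untreated cells, with 95% intervals from edgeR, in floxed-labelled (blue) and knockout-labelled (red) cells; filled points were called at an adjusted p under 0.05. Ciita lies at -1.53 and -1.72 with TGF-β1, and no gene is filled with BMP4.

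The genes around Ciita were followed through 3 lists. Of 13 tested genes for peptide loading, invariant chain processing and turnover of class II, 3 rose and none fell with TGF-β1 in floxed-labelled cells, and 5 rose and none fell in knockout-labelled cells, beside 33% and 34.6% of all genes called in either direction. The median log2 changes were 0.17 and 0.09, and 0.00 over all genes in both. Ctsd, an aspartic protease of the lysosome, rose from 3455, 3111 and 3286 to 5751, 5503 and 5271 CPM in floxed-labelled cells (log2 0.75, edgeR adjusted p = 1.77e-07) and by 0.79 log2 in knockout-labelled cells (edgeR adjusted p = 8.66e-08). Ctss, the cathepsin that makes the last cuts in the invariant chain, rose by 0.33 (edgeR adjusted p = 0.00173) and 0.48 log2 (3.78e-05). H2-Ob, a chain of H2-DO that restrains H2-DM, rose by 1.18 and 1.19 log2 (edgeR adjusted p = 0.0317 and 0.0239) from levels of at most 3.20 CPM. Ctsl, another cathepsin, and March8, a ubiquitin ligase known to act on class II, rose in knockout-labelled cells by 0.27 and 0.14 log2 (edgeR adjusted p = 0.0141 and 0.0322). In floxed-labelled cells Ctsl changed by 0.17 log2 and was called only with the block (edgeR adjusted p = 0.00444), as was March1, the ligase best known for class II turnover (log2 0.19, edgeR adjusted p = 0.00588). The blocked counts were 5 higher of 13, and 6 higher and 1 lower (Ctsz) of 13, beside 39.5% and 40.3% of all genes.

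Of 22 class II transcription factors and upstream signalling genes, 7 rose and 7 fell with TGF-β1 in floxed-labelled cells, and 6 rose and 8 fell in knockout-labelled cells, with median log2 changes of 0.00 and 0.04, again beside 33% and 34.6% of all genes called. The subunits that hold the X box, Rfx5, Rfxap and Rfxank, were not called under either label, with log2 changes between -0.02 and 0.27. Nfya, the subunit of NF-Y that reads CCAAT, rose from 124, 116 and 127 to 196, 206 and 201 CPM in floxed-labelled cells (log2 0.72, edgeR adjusted p = 1.66e-09; 0.75 and 9.27e-10 in knockout-labelled cells), while Nfyb and Nfyc were not called. Irf4, a factor of the interferon regulatory family, fell from 7.19, 8.07 and 5.64 to 1.56, 1.87 and 2.51 CPM (log2 -1.80, edgeR adjusted p = 2.33e-06; -2.29 and 3.32e-07 in knockout-labelled cells). The members of that family moved in both directions. Irf8, a factor of the myeloid lineage, rose by 0.57 and 0.61 log2 (edgeR adjusted p = 1.36e-06 and 5.25e-07), whereas Irf2 fell by 0.40 and 0.43 (5.85e-06 and 3.17e-06). Irf1, which drives the interferon-γ promoter of Ciita, fell by 0.58 and 0.46 (2.25e-05 and 0.000319).

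Genes of the interferon-γ pathway that induces Ciita also moved in both directions. Ifngr1, the ligand-binding chain of the receptor, went from 277, 312 and 319 to 150, 173 and 172 CPM in floxed-labelled cells (log2 -0.88, edgeR adjusted p = 8.77e-09; -0.91 and 6.23e-09 in knockout-labelled cells). Jak2, the kinase bound to the second chain, went from 59.6, 70.2 and 58.1 to 130, 152 and 128 CPM (log2 1.13, edgeR adjusted p = 4.53e-09; 1.08 and 1.01e-08). Under both labels the groups of these genes did not overlap. Socs1, a feedback inhibitor of this receptor's signalling, fell by 1.48 and 1.40 on the log2 scale (edgeR adjusted p = 0.00972 and 0.0180) from levels of at most 1.70 CPM. MHC class I genes served as the other arm of antigen display. Of 16 class I genes and regulators, including H2-K1, H2-D1, B2m and their transactivator Nlrc5, 1 fell in floxed-labelled cells (33% of all genes were called; Psmb10, a subunit of the immunoproteasome, by 0.20 log2, edgeR adjusted p = 0.0259) and none was called in knockout-labelled cells (34.6% of all genes). The median log2 changes were -0.08 and -0.01. With the block 5 and 2 of the 16 fell, beside 39.5% and 40.3% of all genes called in either direction, with Tap1, the peptide transporter, among them both times. Without the floxed-labelled libraries numbered 1, the calls for the 7 genes with TGF-β1 were 1 lower in floxed-labelled cells, and 1 higher and 2 lower in knockout-labelled cells, beside 26.1% and 33.5% of all genes. In that fit Ciita changed by -1.34 log2 in floxed-labelled cells (edgeR adjusted p = 7.1e-05), and the 3 lists held 2, 13 and 0 called genes in floxed-labelled and 5, 13 and 0 in knockout-labelled cells. H2-Ob and Psmb10 were no longer called in floxed-labelled cells (edgeR adjusted p = 0.0857 and 0.0702).

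**Figure D3:**
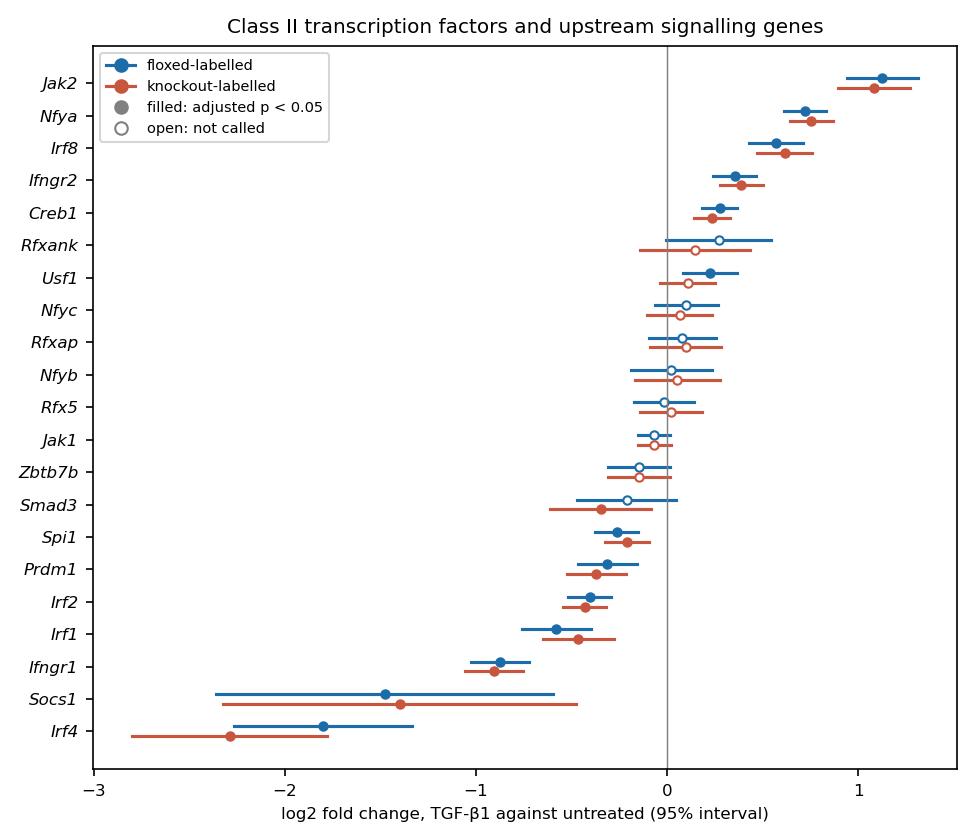
Log2 fold change with TGF-β1, with 95% intervals from edgeR, of 21 of the 22 transcription factors and upstream signalling genes of class II, ordered by the change in floxed-labelled cells (blue; knockout-labelled in red; filled points called). Jak2 and Nfya lie at the top and Irf4 and Socs1 at the bottom under both labels, with Rfx5, Rfxap and Rfxank open.

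BMP4 changed none of the 7 genes at the threshold under either label. The count was 0 of 7 in floxed-labelled cells (0% of all genes tested were called by edgeR) and 0 of 7 in knockout-labelled cells (0.572% of all genes). At an unadjusted p under 0.05 the counts were also 0 and 0, beside 7.51% and 12.2% of all genes. DESeq2, limma on FPKM and the fit with the block called 0 of 7 under either label. Of all genes, DESeq2 called 0.0953% and 1.23%, limma at most 0.729%, and the fit with the block 0.361% and 3.21%. Ciita was at 12.8, 9.04 and 11.5 CPM in floxed-labelled BMP4 libraries, which overlapped the untreated ones (log2 0.09, 95% interval -0.29 to 0.46, edgeR adjusted p = 0.954). In knockout-labelled cells it was at 9.96, 12.1 and 10.4 CPM, so all 3 BMP4 libraries lay below the untreated 12.1 to 15.0 CPM (log2 -0.32, 95% interval -0.70 to 0.06, edgeR adjusted p = 0.502). It was the only one of the 7 without overlap there, where 15.7% of all genes did not overlap. The difference between the labels in the change of Ciita with BMP4 was -0.41 log2 (-0.94 to 0.12), not called (edgeR adjusted p = 0.950).

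Among the class II chains, H2-Ab1 in knockout-labelled cells had the lowest estimate with BMP4, at -0.27 log2 (-0.79 to 0.24), from 24.1, 20.4 and 33.6 CPM untreated to 17.4, 16.0 and 31.1 CPM. Each number was lower with BMP4, number 3 the least, and the groups overlapped. The other estimates with BMP4 for the 6 genes besides Ciita lay between -0.16 for Cd74 in knockout-labelled cells and 0.00 for Cd74 in floxed-labelled cells. All of their 95% intervals, over both labels, stayed between -0.79 and 0.49. None of the 3 other lists had a gene called with BMP4, except that with the block Smad3, a transducer of TGF-β signals, and Zbtb7b were called lower in knockout-labelled cells (log2 -0.34 and -0.20, edgeR adjusted p = 0.0246 and 0.0268). No differences between the labels in the change with either ligand were called for the 7 genes. Of all genes, 0.00681% were called for TGF-β1 and 0% for BMP4. At an unadjusted p under 0.05 the count was 0 of 7 both times, beside 3.36% and 5.71% of all genes. DESeq2 and limma also called 0 of 7, beside at most 0.102% of all genes. Without the floxed-labelled libraries numbered 1, 0 of 7 were called with BMP4 under either label (0.00665% and 0.286% of all genes) and 0 of 7 for the differences in change (0% of all genes both times).

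Between the labels, the class II chains were lower in knockout-labelled cells in each treatment, and none of these differences was called by edgeR. The labels are used as given, with the levels of Lyz2 against them. Untreated, H2-Aa stood at 37.5 ± 3.63 CPM with the floxed label and at 22.7 ± 6.16 CPM with the knockout label (SD, n = 3), a log2 difference of -0.73 (95% interval -1.26 to -0.20, edgeR adjusted p = 0.130). With TGF-β1 the means were 35.0 ± 6.38 and 19.4 ± 8.22 CPM (-0.84 log2, -1.38 to -0.31, edgeR adjusted p = 0.151), and with BMP4 36.0 ± 3.08 and 21.2 ± 8.22 CPM (-0.77 log2, -1.29 to -0.24, edgeR adjusted p = 0.440). The libraries did not overlap untreated or with BMP4 and overlapped with TGF-β1. H2-Ab1 was -0.40, -0.66 and -0.68 log2 apart in the 3 treatments, H2-Eb1 -0.40, -0.57 and -0.47, and Cd74 -0.19, -0.44 and -0.35. For the H2-DM chains the differences were smaller. H2-DMb1 was -0.31, -0.12 and -0.34 log2 apart and H2-DMa -0.22, -0.06 and -0.23.

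Ciita did not follow that direction. It was higher in all untreated knockout-labelled libraries, at 12.1 to 15.0 against 10.1 to 11.3 CPM (log2 0.36, 95% interval -0.01 to 0.74, edgeR adjusted p = 0.301), and overlapped between the labels with TGF-β1 (log2 0.17) and with BMP4 (log2 -0.04). The counts called were 0 of 7 untreated (2.39% of all genes), 0 of 7 with TGF-β1 (0.388%) and 0 of 7 with BMP4 (0.0272%). At an unadjusted p under 0.05, 3, 4 and 5 of the 7 passed, against 17.5%, 12.5% and 7.91% of all genes. Without the floxed-labelled libraries numbered 1, edgeR called 0 of 7 in each treatment (0.259%, 0.0133% and 0.0266% of all genes), with H2-Aa at -0.80, -0.97 and -0.82 log2 and Ciita at 0.33, -0.04 and 0.07. DESeq2 called 0, 2 and 0 (3.67%, 1.29% and 0.232% of all genes), the pair being H2-Eb1 and Cd74 with TGF-β1 (DESeq2 adjusted p = 0.0439 and 0.0226). With limma on FPKM 0 of 7 were called in each treatment (at most 2.62% of all genes). Libraries did not overlap for 2 of 7 untreated (1 higher and 1 lower), where 20.5% of all genes did not overlap (11.3% higher and 9.24% lower). With TGF-β1 the count was 2, both lower, against 19.2% of all genes (10% lower), and with BMP4 it was 5, all lower, against 13.2% (6.22% lower). Within a label, libraries of one number deviated together across treatments, so the 3 treatments do not repeat this comparison independently. The 4 monocyte markers, led by Ccr2, summed to 525 to 755 CPM in untreated floxed-labelled and 373 to 440 CPM in untreated knockout-labelled libraries, without overlap. The 6 neutrophil markers summed to 79.7 to 114 and 64.2 to 89.7 CPM, with overlap. No tested gene of either list was called between the labels in any treatment (2.39%, 0.388% and 0.0272% of all genes). Itgax, a marker of dendritic cells that macrophages share, was lower in untreated knockout-labelled cells (log2 -0.81, edgeR adjusted p = 0.0412; -1.02 and 0.0520 without the floxed-labelled libraries numbered 1). The part of such cells in the class II levels was not tested.

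**Figure D4:**
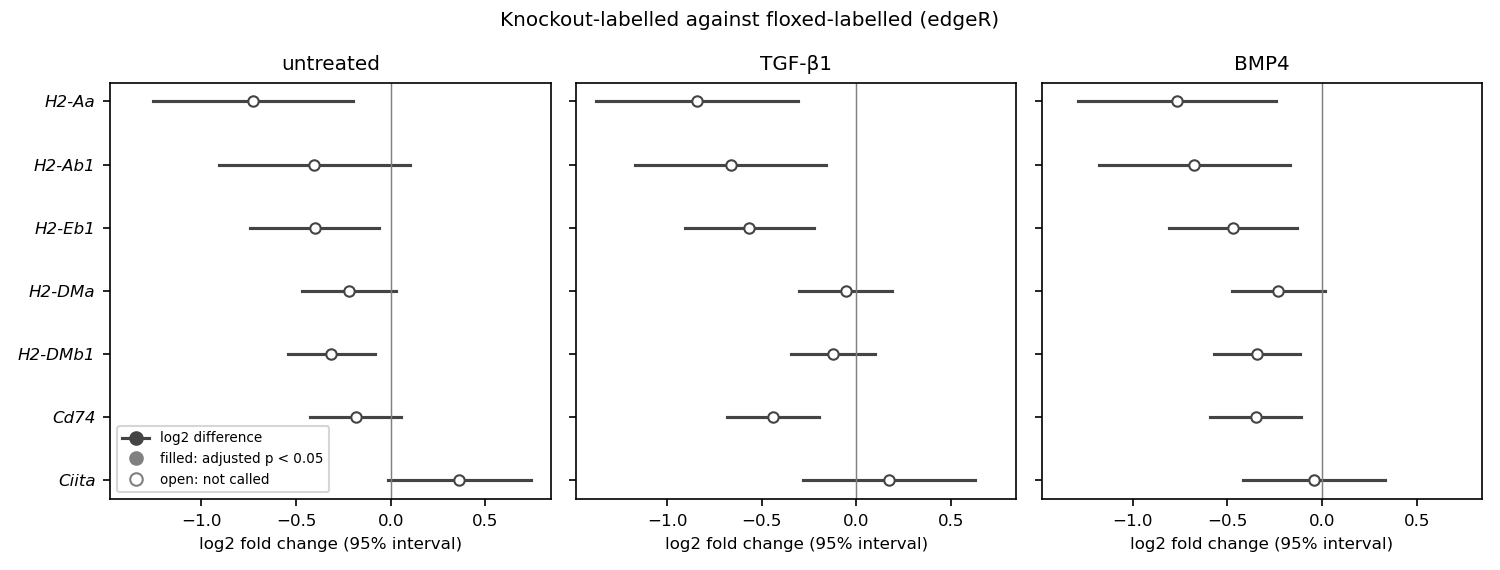
Log2 difference between knockout-labelled and floxed-labelled cells for each gene, with 95% intervals from edgeR, untreated (left), with TGF-β1 (middle) and with BMP4 (right); open points were not called. All points are open, H2-Aa lies between -0.73 and -0.84, and Ciita at 0.36, 0.17 and -0.04.

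The measured class II levels of knockout-labelled cells differed by library number. H2-Aa was at 18.2, 15.6 and 29.5 CPM in the knockout-labelled libraries numbered 1, 2 and 3 (means of the 3 treatments) and at 31.8, 37.9 and 38.8 CPM in the floxed-labelled ones. H2-Ab1 was at 19.8, 17.9 and 32.5 CPM in the former and at 31.1, 36.2 and 37.5 CPM in the latter. H2-Eb1 was at 24.5, 21.5 and 29.7 CPM and at 30.6, 37.0 and 38.0 CPM. Thus numbers 1 and 2 were the low ones for each chain, and number 3 came close to or into the floxed-labelled range. Without the knockout-labelled libraries numbered 3, H2-Aa was called lower in all 3 treatments (log2 -0.95, -1.26 and -1.14; edgeR adjusted p = 0.0145, 0.00138 and 0.00280) and 2, 2 and 3 of the 7 genes were called. In that fit 0.333%, 0.127% and 0.1% of all genes were called. Without the libraries numbered 1 of that label, 0 of 7 were called in each treatment, beside 0.1%, 0.0602% and 0.00668% of all genes. Without those numbered 2 it was also 0 of 7 in each, beside 4.55%, 0.219% and 0.106% of all genes. These fits were chosen after seeing the data. Number 3 had the highest H2-Aa of that label in each treatment, so a larger difference without it followed from the choice. The adjusted p-values of the fit without number 3 are therefore no test of a difference between the labels.

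H2-DMb2, the near copy of H2-DMb1, had the reverse pattern. It was at 8.28, 11.3 and 1.51 CPM in untreated knockout-labelled libraries numbered 1, 2 and 3, at 26.4, 19.8 and 2.45 CPM with TGF-β1 and at 12.3, 10.8 and 1.77 CPM with BMP4. In the floxed-labelled libraries it was at 1.06 to 2.39 CPM. Numbers 1 and 2 of the knockout label were thus high and number 3 was at the floxed-labelled level. H2-Ob showed the same order, with means over treatments of 4.92, 4.83 and 1.84 CPM in knockout-labelled and 2.26, 2.79 and 2.01 CPM in floxed-labelled libraries. Reads of H2-DMb1 and H2-DMb2 may be shared between such near copies, so both levels are uncertain. With the block within the label, H2-DMb2 also rose with TGF-β1 in knockout-labelled cells (log2 1.15, edgeR adjusted p = 2.05e-06), beside the rise of H2-DMb1. Outside the class II region, the class I gene H2-T23 set number 2 of the knockout label apart, at 21.5 to 31.9 CPM in its 3 libraries and at 143 CPM or more in the 15 others. The build was mm10 for all libraries, and whether they differ in MHC sequence was not tested. A difference in transcript level and one in how reads match the build cannot be told apart here.

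From H2-Oa to H2-Ea-ps (chr17:34092340-34344643, build mm10 as in the deposited table) the table held 20 genes, of which 14 were tested. Between the labels edgeR called none of the 14 untreated, with TGF-β1 or with BMP4, beside 2.39%, 0.388% and 0.0272% of all genes. The largest differences were those of H2-DMb2, at log2 2.46, 3.08 and 2.38 (edgeR adjusted p = 0.111, 0.0716 and 0.436), with its numbers 1 and 2 of the knockout label apart from number 3. Brd2, a chromatin reader that lies in this region, was at 260 to 275 CPM and 262 to 270 CPM in the means per number of the knockout and the floxed label. Tap1 was at 97.2 CPM in number 2 of the knockout label and at 134 CPM or more in the other means.

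**Figure D5:**
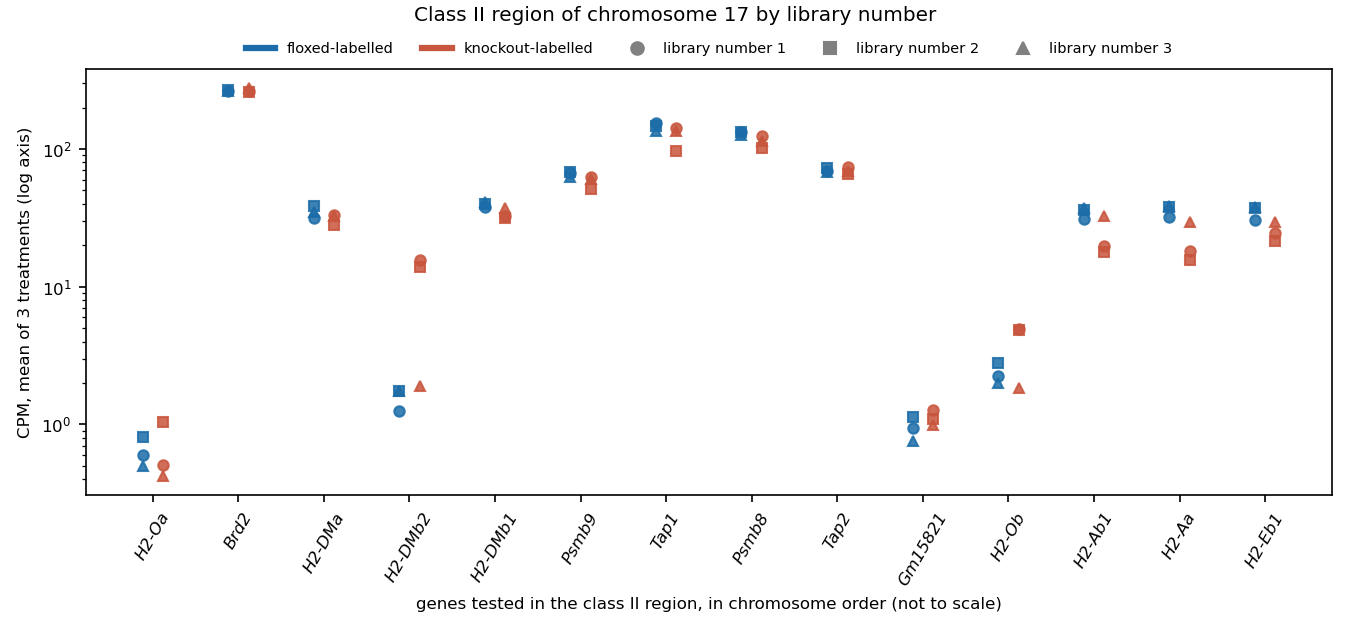
CPM (log axis) of the 14 tested genes of the class II region in chromosome order, as the mean of the 3 treatments for each library number in floxed-labelled (blue) and knockout-labelled (red) cells. For H2-Ab1 and H2-Aa the red triangle of number 3 lies above the red symbols of numbers 1 and 2, and for H2-DMb2 and H2-Ob below them.

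Across libraries H2-Aa, H2-Ab1 and H2-Eb1 moved together, and the other genes less so. As deviations from the group means over 18 libraries, H2-Aa and H2-Ab1 had a Pearson r of 0.98, H2-Ab1 and H2-Eb1 0.85, H2-Aa and H2-Eb1 0.83, and H2-Eb1 and Cd74 0.78. H2-DMb1 had an r of 0.52 to 0.70 with the 5 genes other than Ciita and H2-DMa one of 0.39 (with Cd74) to 0.65. Ciita had an r of 0.02 to 0.27 with the 6 others. Without the floxed-labelled libraries numbered 1, over 15 libraries, the r of H2-Aa and H2-Ab1 was 0.99, that of H2-DMa and Cd74 was -0.00, and those of Ciita were -0.23 to 0.16. These are descriptions only, since the values of a library share its depth and its culture, and libraries of one number share more than that. The genes whose levels over the 18 libraries were most like the mean pattern of H2-Aa, H2-Ab1, H2-Eb1 and Cd74 were Hp, which encodes haptoglobin (r = 0.909), Rps18, a ribosomal protein gene (0.885), Dppa3 (0.874) and Slc6a12, a transporter gene (0.835). Without the floxed-labelled libraries numbered 1, the order over 15 libraries was Rps18 (0.935), Hp (0.923), Dppa3 (0.907) and Fez2 (0.879). Rps18 lies at chr17:33951999-33956001, beside the class II region, and was at 310 CPM on average in knockout-labelled and 447 CPM in floxed-labelled libraries.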

How the data were processed

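Polyadenylated RNA was sequenced as paired reads of 150 bp, per the labels. Per the submitters' processing notes the tools included TopHat2 2.0.9, HTSeq 0.6.1 and Cufflinks 2.1.1 and the build was mm10 (GRCm38.p6); their roles and the strand setting are not given in the sources used here. The deposited count columns are reads per gene, and the FPKM columns are the authors' length-scaled values, per the file headers; both were used as deposited. The table has 78 further per-sample columns (36 repeats and 42 scaled per comparison) that were not used. No library repeated another: within groups, the chi-square of paired libraries over its degrees of freedom was 3.56 to 27.43.

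The count tests used edgeR 4.0.16 in R 4.3.3, with TMM scaling, filterByExpr, 1 mean per group over 18 libraries and a two-sided quasi-likelihood F test (degrees of freedom 12 residual plus 6.41 prior; coefficient of variation between libraries 8.87%). Adjusted p is by Benjamini-Hochberg over the 14684 tested genes, and calls are those under 0.05. The script was tested on simulated counts. Intervals are 95% intervals of the fit. Library numbers paired libraries within a label (all 18 pairs of deviations correlated at 0.334 to 0.731 over 8601 genes) and not between labels (2 of 27 pairs over 0.1), so fits with the number as a block within the label are printed where they change a call. For H2-Aa and H2-Ab1 with TGF-β1 they are printed without such a change. DESeq2 1.42.0 and limma 3.58.1 on log2(FPKM + 1) and log2(FPKM + 0.1) were alternatives, with other scalings and filters, a fit of only the groups compared, and each library left out in turn. Fits without libraries of one number within a label were added after earlier results of these data were known.

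The 7 genes and all lists were chosen with earlier results of these data known. Listed genes are named by up to 4 called members in each direction with the lowest adjusted p; Socs1, the RFX subunits, Clec10a, Tap1 and other genes outside that rule were chosen after their values were seen. The 8 genes most like the class II pattern were sought among genes averaging 1 CPM or more, and not all are reported. Values of 2 listed genes are not reported here.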

Additional observations from a re-analysis of the deposited data

How the results depend on the processing

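The fall of Ciita with TGF-β1 was called in every alternative run under both labels, and no called value changed direction in any alternative. Of 1323 values of single genes under alternatives, 29 gained a call, 6 lost one, and 88 that were called in neither fit changed sign, at log2 values of at most 0.179. The number of the 7 genes called moved as follows, and the cause was not tested. With no filter on low counts it was 2 for TGF-β1 in floxed-labelled cells, where 16% of all genes were called. Between the labels it was 5, 4 and 5 in that fit untreated, with TGF-β1 and with BMP4, all lower in knockout-labelled cells, where 2.77%, 1.34% and 0.973% of all genes were called. DESeq2 gave 2 between the labels with TGF-β1 (1.29% of all genes). The replicate block over all groups gave 1 (H2-Aa) untreated and 2 (H2-Aa and Cd74) with TGF-β1 between the labels, beside 2.94% and 0.661% of all genes. The block within the label gave 2 for TGF-β1 in floxed-labelled cells (39.5% of all genes). The blocks changed no other call of the 7 genes. Without the knockout-labelled libraries numbered 1 the number of the 7 genes called was 1 for TGF-β1 in knockout-labelled cells (26.1% of all genes). Without those numbered 3 it was 2 for TGF-β1 in floxed-labelled cells (31.4% of all genes) and 2, 2 and 3 between the labels (0.333%, 0.127% and 0.1%). The fits without libraries of one number were chosen after seeing the data and are no test of a difference between the labels. Leaving out each library in turn gave 2 to 3 for TGF-β1 in knockout-labelled cells (28.8% to 30.8% of all genes). It gave 1 for TGF-β1 in floxed-labelled cells (27.8% to 29.8%) and 0 in the other comparisons (at most 4.06%). Ciita had 41 to 278 counts per library.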
